A study of Mus musculus with 2 samples.

Results

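Cells that passed a gate on pericyte genes were examined in single-cell RNA sequencing of the mouse abdominal aorta, and they made up 1459 of the 35848 cells kept. The members were selected on their own UMI counts (UMIs are unique molecular identifiers, each standing for 1 captured RNA molecule). A cell entered when it held at least 3 UMIs over *Kcnj8*, *Abcc9* and *Steap4* and at least 2 over *Pdgfrb* and *Notch3*. It was left out when it held more than 1 UMI over the endothelial genes *Pecam1* and *Cdh5*, more than 1 of the leukocyte gene *Ptprc*, or more than 2 over the fibroblast genes *Pdgfra* and *Lum*. One library came from Control mice given normal saline and one from mice given angiotensin II at 1500 ng/kg/min with 0.9% NaCl and 0.2% KCl in the drinking water (AngII+HS), a model of abdominal aortic aneurysm. Both groups were male C57BL/6J mice, 5 months old, and the suprarenal abdominal aorta was taken at day 28. The series text states that tissue of 5 mice was pooled per library, while the protocol names 1 Control mouse and 2 AngII+HS mice. Each condition was thus a single library, so the conditions could not be tested against each other, and condition, mouse, library and depth cannot be told apart. The list of barcodes recorded with each matrix had the length of the other matrix, the lists share 67 barcodes, and the matrices were read under the sample they are recorded for. The Control library held 86618995 UMIs in 11448 barcodes (median 7487), and the AngII+HS library held 117146856 UMIs in 24804 barcodes (median 3506).

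Pericytes are mural cells that sit in the basement membrane of capillaries and venules, where they touch the endothelium and help set vessel calibre, stability and permeability. In a large artery they are found around the small vessels of the wall, the vasa vasorum, while the media is built from vascular smooth muscle cells (VSMCs), which share many genes with them. *Kcnj8* and *Abcc9* encode the pore and the sulfonylurea receptor of the vascular ATP-sensitive potassium channel, *Steap4* a metalloreductase, and *Pdgfrb* and *Notch3* the receptors through which endothelial cells recruit and maintain mural cells.

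The gate was checked first against pericyte markers that it had not used. Levels are given as CPM, the UMIs of a gene summed over the cells of a class and scaled to the total of those cells. Because the gates chose both classes, the comparison with VSMCs is a description. In the Control library these markers were low in gated cells, some as low as in VSMCs and others above them. *Higd1b* was at 0.848 CPM in gated cells and 0.871 CPM in VSMCs, the cells with contractile genes that failed the gate. *Vtn* was at 1.04 and 0.0746 CPM, and *Ndufa4l2* at 1.76 and 1.52 CPM in the same order. *Colec11*, a collectin, was at 4.11 CPM in gated cells and 1.27 CPM in VSMCs. *Rgs5*, an inhibitor of G-protein signalling found in all mural cells, was at 5595 CPM in gated cells and 5249 CPM in VSMCs. The 20 contractile genes summed to 41154 CPM in gated cells and 44042 CPM in VSMCs. *Myh11* (smooth muscle myosin) was at 3269 against 3248 CPM and *Acta2* (smooth muscle actin) at 11871 against 13467 CPM. Over the 13429 genes with at least 50 UMIs in both classes together, 0.737% were at least 2-fold higher and 0.335% at least 2-fold lower in the Control gated cells than in the Control VSMCs. For most Control members the data therefore went against the pericyte label, and the members are called gated cells below.

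In the AngII+HS library *Higd1b*, *Vtn*, *Ndufa4l2* and *Colec11* were higher in gated cells than in VSMCs. *Higd1b* was at 27.9 CPM in gated cells against 16.3 CPM in VSMCs, *Vtn* at 29.4 against 2.46 CPM, *Ndufa4l2* at 81.1 against 28.9 CPM and *Colec11* at 54.7 against 8.09 CPM. *Ndufa4l2* was also found in fibroblasts, at 113 CPM in Control and 93.0 CPM in AngII+HS, so it did not single out mural cells here. *Rgs5* was at 5256 CPM in gated cells and 5214 CPM in VSMCs. Of the 20 markers outside the gate, 18 had enough UMIs to be compared. Of these 18, 5 were at least 2-fold higher in gated cells, 0 at least 2-fold lower, and only 10 higher by any margin. Their median log2 ratio was 0.20, against 0.06 over all genes, so the list as a whole differed little. Of 10101 genes, 4.44% were at least 2-fold higher and 1.09% at least 2-fold lower in the AngII+HS gated cells than in the AngII+HS VSMCs. *Myh11* was nevertheless at 2032 CPM and *Acta2* at 11840 CPM in the AngII+HS gated cells. T and B cells, which should lack *Higd1b*, *Vtn* and *Myh11*, held *Higd1b* and *Vtn* at 0 CPM in both libraries. They held *Myh11* at 588 CPM in Control and 104 CPM in AngII+HS. Whether this *Myh11* RNA came from free RNA, mixed droplets or the limits of the class was not tested.

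**Figure D1:**
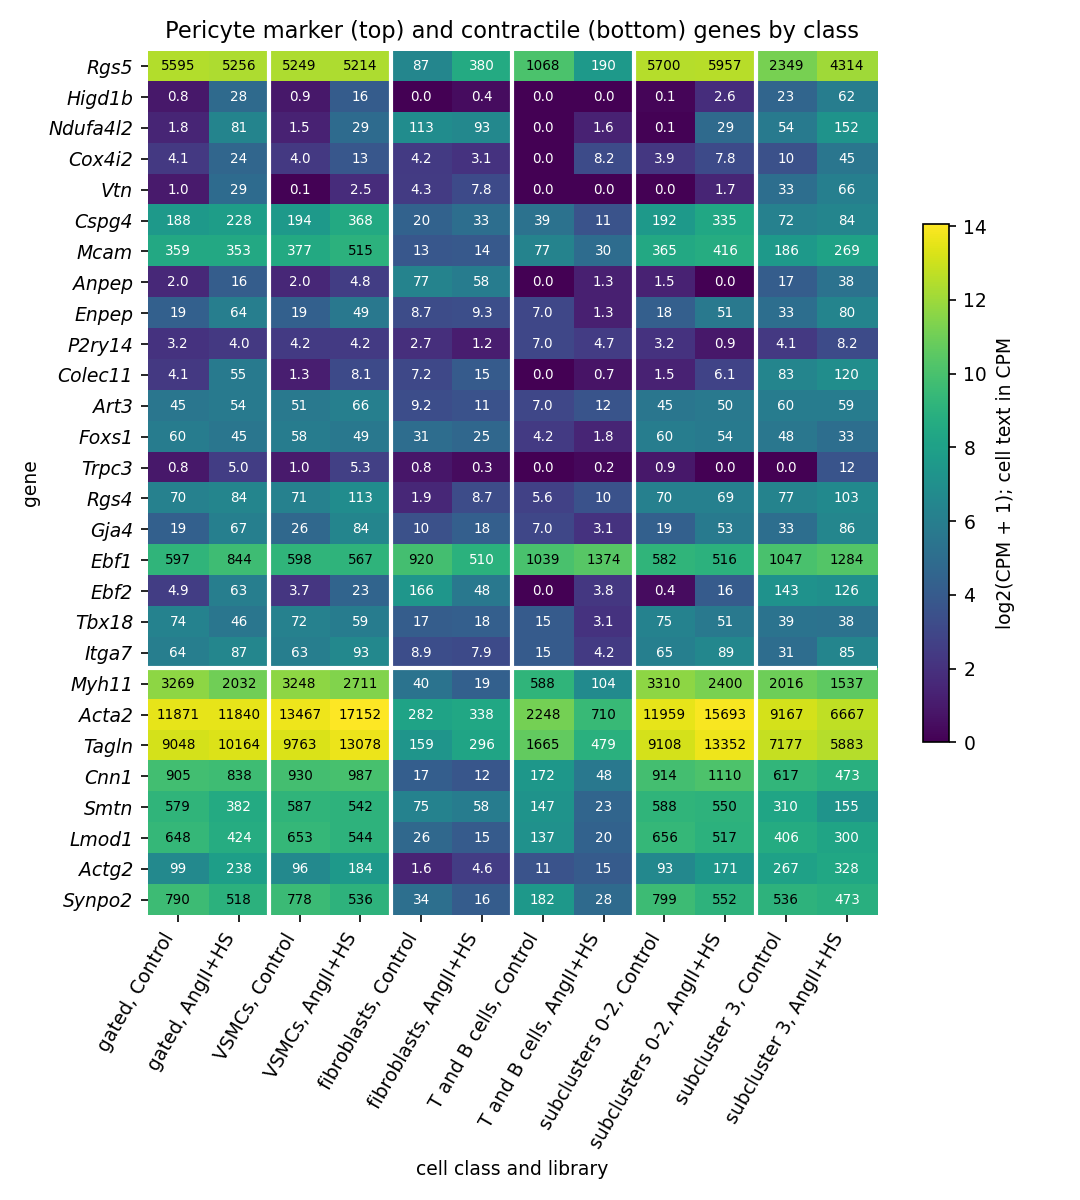
Heat map of the summed level of the 20 pericyte markers outside the gate (top) and 8 contractile genes (bottom), with cell classes of both libraries as columns, colour as log2(CPM + 1) and the CPM printed in each square. The Control gated column resembles the Control VSMC column, and *Higd1b*, *Vtn* and *Colec11* are highest in the subcluster 3 columns.

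The limit on *Pdgfra* and *Lum*, applied last, acted unequally on the libraries. Of the cells that met every other limit, it kept 1227 of 1440 in Control and 232 of 1449 in AngII+HS. Its part in the differences between the libraries was not tested. Which gene brought a cell through the gate differed between libraries too. A *Steap4* UMI was present in 4.73% of Control and 44.4% of AngII+HS gated cells. *Abcc9* alone supplied the 3 UMIs in 728 Control cells (59.3%) and 74 AngII+HS cells (31.9%). The gated cells were the deeper cells of their libraries, with a median of 11765 UMIs in Control and 7460.5 UMIs in AngII+HS. The 3 contractile genes *Myh11*, *Acta2* and *Tagln* took a median of 2.40% of a Control cell's UMIs and 1.502% of an AngII+HS cell's. At least 1% of UMIs came from these genes in 1166 of 1227 Control members (95.03%) and in 128 of 232 from AngII+HS (55.2%).

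Cells just inside and just outside the first threshold held similar levels of *Rgs5* and *Myh11* in Control. The 417 Control cells with exactly 3 channel UMIs held *Rgs5* at 5396 CPM and *Myh11* at 3163 CPM, and the 539 cells with 2 UMIs that met every other limit held them at 5705 and 3122 CPM. In AngII+HS the 77 cells just inside held *Ndufa4l2* at 41.5 CPM and *Higd1b* at 4.61 CPM, and the 115 cells just outside held them at 57.8 and 31.7 CPM. *Vtn* was at 10.8 CPM inside and 9.06 CPM outside, and *Colec11* at 23.0 and 34.0 CPM. In AngII+HS cells with pericyte marker RNA were thus found on both sides, with *Higd1b*, *Ndufa4l2* and *Colec11* higher outside and *Vtn* lower.

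The share of gated cells moved with sequencing depth. In Control 1227 of 11288 cells passed (10.9%, exact binomial 95% interval 10.3 to 11.5%), and in AngII+HS 232 of 24560 cells passed (0.945%, 0.827 to 1.07%). These intervals, like all intervals below, cover counting error only. When each cell was reduced to 2000 UMIs before gating, which dropped 1498 Control and 7755 AngII+HS cells below that depth, 27 of 9790 Control cells passed (0.276%, 0.182 to 0.401%) against 74 of 16805 AngII+HS cells (0.440%, 0.346 to 0.553%). The direction was thus reversed after thinning. Thinning lowers the counts of the genes that exclude a cell as well as of those that admit it, and these effects were not separated. No order of the libraries is drawn from these shares.

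Depth moved with the share inside each library too. Among cells with at least 3 *Myh11* UMIs and the same limits on endothelial, leukocyte and fibroblast genes, 10 of 382 Control cells under 5000 UMIs passed (2.62%), 328 of 2468 between 5000 and 10000 UMIs (13.3%), 596 of 2095 between 10000 and 15000 UMIs (28.4%), and 274 of 510 deeper cells (53.7%). In AngII+HS the same bins gave 27 of 323 (8.36%), 64 of 420 (15.2%), 50 of 245 (20.4%) and 25 of 81 (30.9%). The share was higher in AngII+HS in the bins under 10000 UMIs and higher in Control in the deeper bins. Each bin counts cells of a single library per condition, so no difference between the conditions is drawn from it.

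**Figure D2:**
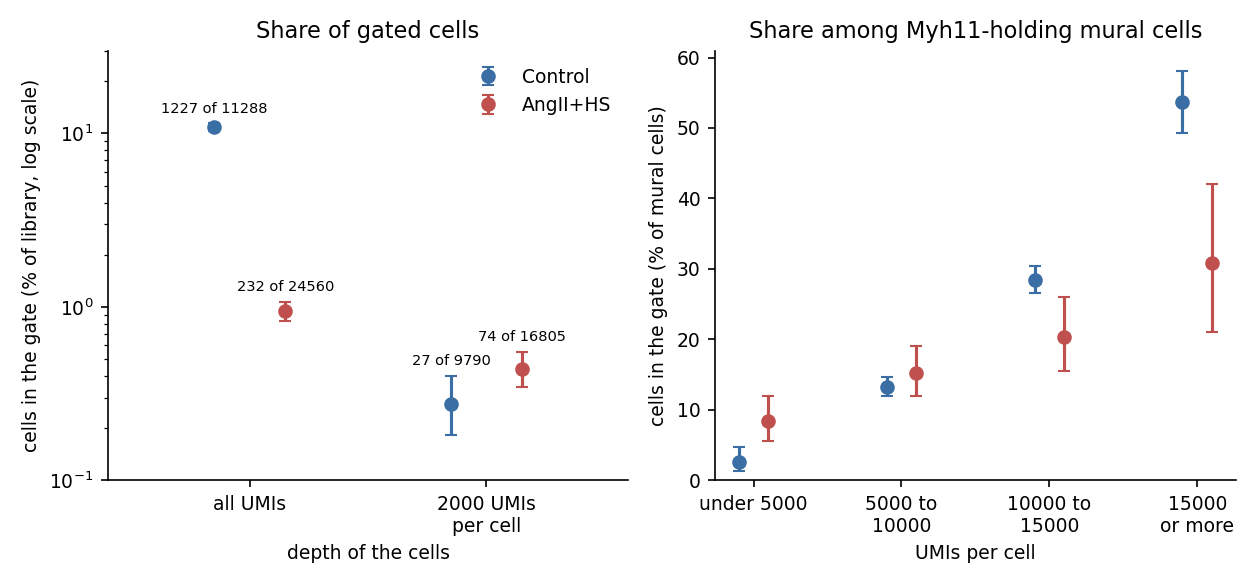
Left, share of gated cells in each library on a log axis (% of kept cells), with all UMIs and after thinning every cell to 2000 UMIs; right, share of gated cells among *Myh11*-holding mural cells by depth (UMIs per cell). Points are shares and bars exact binomial 95% intervals: the order of the libraries turns on the left after thinning, and both libraries climb with depth on the right.

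The gated cells fell into 4 subclusters when both libraries were integrated and clustered together. Subclusters 0, 1 and 2 held 1173 Control and 109 AngII+HS cells and were mostly contractile, with a median of 2.42% and 3.06% of UMIs from *Myh11*, *Acta2* and *Tagln*, and 1132 and 86 cells at or above 1%. Subcluster 0 was led by *Emp1*, *Cish* and *Fgf14*, subcluster 1 by *Plcxd3*, and subcluster 2 by *Actn2* (a sarcomeric actinin), *Cacna2d3* and *Kcnc4* (ion channel subunits) and *Wif1* (an inhibitor of WNT signalling). Subcluster 3 held 54 Control and 123 AngII+HS cells and was led by *Lin7a*, *Adgrl3*, *Vtn*, *Ccl11*, *Procr*, *Ms4a4d*, *Ednrb*, *Gpx3*, *Rgs16* and *Ifitm1*. Some of these leading genes also differed between the libraries within the subcluster, so the sizes and shares of subclusters are given as a description, with no reading of more or fewer cells.

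The larger section of subcluster 3 was pericyte-like, and a smaller one was led by genes of other cell types. At a finer resolution of 0.8, fine subcluster 5 (30 Control and 83 AngII+HS cells) was led by *Cyp4b1*, *Actc1*, *Lin7a*, *H2-M9*, *Ednrb*, *Rgs16*, *Ccl11*, *Higd1b*, *Adgrf5* and *Vtn*, and it is called pericyte-like because *Higd1b* and *Vtn*, markers outside the gate, were among these leading genes. Of 24 pericyte markers, which include 4 genes of the gate, 22 were detected in at least 10% of its cells in both libraries. The same number was detected over all AngII+HS gated cells, against 14 over all Control gated cells, so the count does not single it out in AngII+HS. Its *Higd1b* was at 47.5 CPM in Control and 94.9 CPM in AngII+HS, and its *Colec11* at 190 and 192 CPM. Other markers did not follow. Its *Rgs5* was at 2209 CPM in Control and 4977 CPM in AngII+HS, against 5595 and 5256 CPM over all gated cells. Its 24 markers summed to 6913 and 10677 CPM, against 7587 and 8519 CPM. A *Cspg4* UMI was found in 31.5% and 19.5% of subcluster 3 cells, against 84.3% and 51.3% of all gated cells. Fine subcluster 7 (22 and 37 cells) was led by the myeloid genes *Cybb*, *Csf2rb*, *Ccl3*, *Pf4* and *Spi1* with the fibroblast gene *Clec3b*, and the doublet caller Scrublet marked 13 and 25 of its cells, against 0 and 17 in fine subcluster 5. Contractile genes were present in fine subcluster 5 as well, with *Acta2* at 10776 CPM in Control and 6351 CPM in AngII+HS.

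Markers were also counted per cell. At least 2 UMIs over *Higd1b*, *Vtn*, *Ndufa4l2* and *Colec11* were found in 23 of 1227 Control gated cells (1.87%) and 78 of 232 AngII+HS gated cells (33.6%). In subcluster 3 they were found in 19 of 54 (35.2%) and 69 of 123 cells (56.1%), and in fine subcluster 5 in 17 of 30 (56.7%) and 62 of 83 (74.7%). Subclusters 0 to 2 had 4 such cells of 1173 in Control and 9 of 109 in AngII+HS. T and B cells, with median depths of 4619 and 2696.5 UMIs, had 0 of 117 (exact binomial upper bound 3.10%) and 3 of 1116 (0.269%). The VSMCs outside the gate had 25 of 4247 (0.589%) and 74 of 903 (8.19%), so cells with these markers were also left outside it. Fibroblasts had 165 of 1487 (11.1%) and 886 of 4656 (19.0%), above the Control gated cells, so this count is not particular to pericytes. At 2000 UMIs per cell the share with a *Ndufa4l2* UMI was 0.489% in Control and 16.3% in AngII+HS gated cells, and unthinned it was 1.06% and 28.9%.

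**Figure D3:**
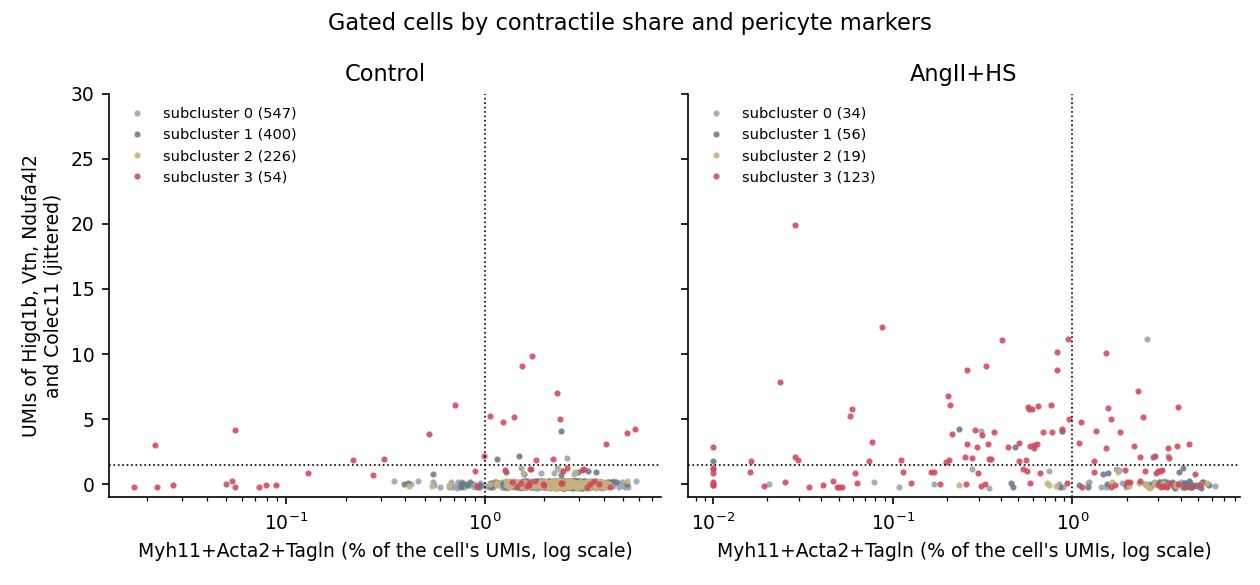
Each point is 1 gated cell, with the share of its UMIs from *Myh11*, *Acta2* and *Tagln* on a log axis (%, lowest values drawn at 0.01) and its UMIs of *Higd1b*, *Vtn*, *Ndufa4l2* and *Colec11* (jittered), coloured by subcluster. Dotted lines mark 1% and the step between 1 and 2 marker UMIs: Control cells crowd at low marker counts to the right of 1%, while 69 of 123 AngII+HS subcluster 3 cells lie above the horizontal line.

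The comparison of AngII+HS with Control was made over all gated cells, and again within subcluster 3. Of 11322 genes with at least 50 UMIs in the gated cells, 8.33% were at least 2-fold higher and 4.95% at least 2-fold lower in AngII+HS. Within subcluster 3, 5.67% of 4621 genes were at least 2-fold higher and 4.44% at least 2-fold lower. Since 4.401% of Control members and 53.0% of AngII+HS members were in subcluster 3, a ratio over the whole gate compares cell mixtures that differed, and the value within subcluster 3 is given beside it. Subcluster 3 was itself mixed, since a section of it was led by genes of other cell types.

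The genes with the highest ratios, by a rule that asked for at least 100 UMIs and a level at least 3-fold that of T and B cells, were *Col5a3*, *Lin7a*, *H2-M9*, *Cyp7b1*, *Ednrb*, *Ndufa4l2*, *Procr*, *Ccl11*, *Rgs16*, *Apold1*, *Adgrl3* and *Adgrf5*. *Ednrb*, an endothelin receptor, was at 3.98 CPM in Control and 216 CPM in AngII+HS gated cells. The log2 ratio was 5.77 (exact conditional binomial 95% interval 5.38 to 6.18). Within subcluster 3 it was at 88.98 and 497 CPM, a log2 ratio of 2.48 (2.03 to 2.97), and in fine subcluster 5 at 185 and 771 CPM. An *Ednrb* UMI was found in 9.26% of Control and 30% of AngII+HS subcluster 3 cells at 2000 UMIs per cell (16.7% and 36.6% unthinned). In T and B cells the shares were 0 and 0.9001% at 1000 UMIs per cell and 0.855% and 2.60% unthinned. *Procr*, the protein C receptor, was at 8.48 and 350 CPM in gated cells and at 246 and 798 CPM in subcluster 3. *Ccl11*, the chemokine eotaxin, was at 9.65 and 353 CPM in gated cells and at 281 and 809 CPM in subcluster 3. *Rgs16*, an inhibitor of G-protein signalling, was at 6.39 and 196 CPM in gated cells and at 180 and 437 CPM in subcluster 3. For each of these genes the ratio within subcluster 3 was smaller than over the whole gate, and each was still higher in AngII+HS.

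Collagen and enzyme genes among them behaved alike. *Col5a3*, a minor fibrillar collagen chain, was at 0.522 CPM in Control and 49.7 CPM in AngII+HS gated cells and at 14.5 and 105 CPM in subcluster 3. *Cyp7b1*, an oxysterol hydroxylase, was at 1.11 and 64.2 CPM in gated cells and at 10.3 and 135 CPM in subcluster 3. In Control subcluster 3, *Col5a3* and *Cyp7b1* rested on few UMIs, so their ratios there are uncertain. *H2-M9* rested on few cells in Control, where 1 cell gave 56.2% of its 16 UMIs. In subclusters 0 to 2 *Ednrb* was at 1.21 and 7.81 CPM and *Ccl11* at 0.808 and 13.9 CPM, so these genes were low outside subcluster 3 in both libraries.

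The lowest ratios belonged to *Gm12381*, *Sh3rf2*, *Zfp385b*, *Gm17056*, *Grm3*, *6030407O03Rik*, *Gm41604*, *Ccdc85a*, *Vstm2b*, *Kctd16*, *Gal3st3* and *Xkr4*. *Xkr4*, a relative of the lipid scramblases, was at 162 CPM in Control and 26.9 CPM in AngII+HS gated cells, a log2 ratio of -2.59 (-3.01 to -2.20). It was at 161 and 28.6 CPM in subclusters 0 to 2, at 211 and 24.5 CPM in subcluster 3 and at 165 and 31.9 CPM in VSMCs. *Gm17056*, a gene model without a protein name, was at 125 and 13.4 CPM in gated cells, at 68.3 and 16.3 CPM in subcluster 3 and at 144 and 14.6 CPM in VSMCs. These 2 genes were lower in AngII+HS in each subset and in the VSMCs outside the gate. Of the other 10 genes, 8 rested on 2 to 4 UMIs in AngII+HS, such as 2 of *Sh3rf2* and 4 of *Grm3*, a metabotropic glutamate receptor.

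**Figure D4:**
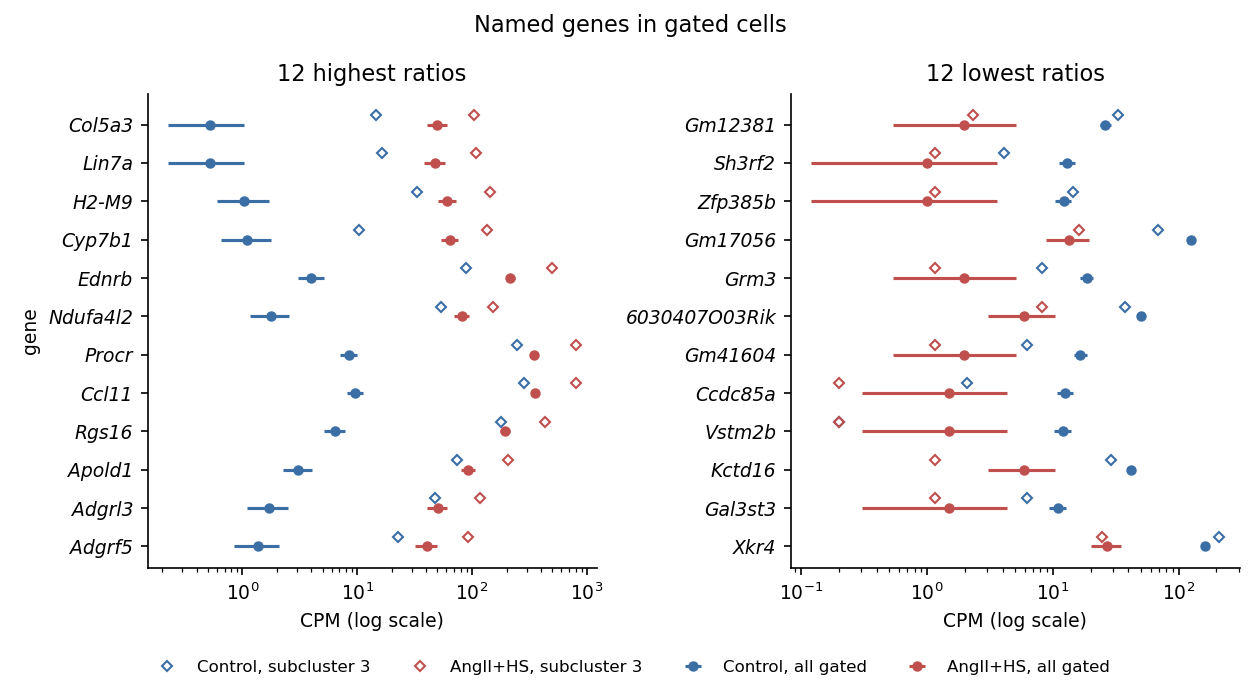
Levels (CPM, log axis) of the named genes, 12 at each end of the AngII+HS over Control ratio, in all gated cells (dots, bars are Poisson 95% intervals) and in subcluster 3 (diamonds, values of 0 drawn at 0.2). For the genes with the highest ratios the diamonds of the libraries lie closer together than the dots, and AngII+HS is to the right for both.

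The pericyte marker list outside the gate had 19 of 20 genes over the limit of 50 UMIs. Of these, 9 were at least 2-fold higher in AngII+HS and 0 lower, against 8.33% and 4.95% of all genes. Their median log2 ratio was 0.50 against 0.06 over all genes. The difference was uneven across the list. *Higd1b*, *Vtn*, *Ndufa4l2*, *Colec11*, *Ebf2*, *Anpep*, *Enpep*, *Gja4* and *Cox4i2* were higher, the first 8 of them at least 3-fold over T and B cells, and *Cox4i2* not. *Rgs5* (5595 and 5256 CPM), *Mcam* (an adhesion molecule, 359 and 353 CPM) and *Cspg4* (the NG2 proteoglycan, 188 and 228 CPM) stayed within 2-fold. Within subcluster 3 the median was 0.53 over 16 genes, and in subclusters 0 to 2 it was 0.18 over 12. In the VSMCs outside the gate the median was 0.92 against 0.01 over all genes, so the difference was not one of the gated cells alone. *Rgs5* itself was at 2349 CPM in Control and 4314 CPM in AngII+HS in subcluster 3 and at 2209 and 4977 CPM in fine subcluster 5. *Enpep*, the aminopeptidase that degrades angiotensin II, was at 18.8 and 63.7 CPM in gated cells, at 33.1 and 80.4 CPM in subcluster 3 and at 18.8 and 48.8 CPM in VSMCs, so it was higher in AngII+HS in all 3. The transcription factor gene *Ebf2* was at 4.89 and 62.7 CPM in gated cells but at 143 and 126 CPM in subcluster 3.

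Receptors for vasoactive hormones had 21 of 26 genes over the limit, of which 7 were higher and 1 lower, with a median of 0.39. Of all genes 8.33% were higher and 4.95% lower, and 1 lower gene of 21 is near that share. In the VSMCs outside the gate 10 of 24 genes were higher, against 6.93% of all genes there. Their median was 0.67, so the difference was not one of the gated cells alone. *Ednra*, the endothelin receptor that drives contraction, was at 9.91 CPM in Control and 129 CPM in AngII+HS gated cells, at 66.2 and 268 CPM in subcluster 3 and at 12.8 and 43.0 CPM in VSMCs. *S1pr3*, a sphingosine-1-phosphate receptor, was at 2.35 and 48.3 CPM in gated cells and at 20.7 and 89.7 CPM in subcluster 3, and *Ptgir*, the prostacyclin receptor, was at 2.09 and 27.9 CPM and at 16.6 and 53.6 CPM. *Ednra*, *Ednrb*, *S1pr3* and *Ptgir* were thus higher in AngII+HS over the whole gate and within subcluster 3. In Control subcluster 3, *S1pr3* and *Ptgir* rested on fewer than 13 UMIs each, so their ratios there are uncertain. The angiotensin receptor *Agtr1a* was at 1.83 and 12.9 CPM in gated cells but at 26.9 and 26.8 CPM in subcluster 3, from 13 and 23 UMIs. *Agtr1b* was at 13.6 and 9.95 CPM in gated cells, with an interval of the log2 ratio that spanned 0 (-1.19 to 0.21). *Ptger3*, a prostaglandin E receptor, was lower, at 38.6 and 16.4 CPM. *Npr1*, the receptor for atrial natriuretic peptide, was at 75.9 and 49.3 CPM in gated cells and at 45.5 and 11.7 CPM in subcluster 3.

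Downstream of these receptors, ion channels and their regulators had 9 of 14 genes over the limit, of which *Trpc6* and *Ano1* were higher and *Kcnma1* lower, with a median of -0.37. Of all genes 8.33% were higher and 4.95% lower, with a median of 0.06. Counts this small are not read as a result for the list. *Kcnma1*, the pore of the large-conductance calcium-activated potassium channel, was at 533 and 239 CPM in gated cells, at 244 and 111 CPM in subcluster 3 and at 502 and 354 CPM in VSMCs. *Ano1*, a calcium-activated chloride channel, was at 43.4 and 118 CPM in gated cells but at 157 and 170 CPM in subcluster 3. *Trpc6*, a receptor-operated cation channel, was at 0.978 and 39.3 CPM in gated cells and at 6.21 and 90.9 CPM in subcluster 3, from 3 and 78 UMIs (log2 ratio 3.87, 2.27 to 6.18). In AngII+HS 1 cell gave 24.1% of the *Trpc6* UMIs of the gate. *Actc1*, cardiac actin and a leading gene of fine subcluster 5 that was picked after its values were seen, was at 106 and 132 CPM in subcluster 3 and at 0.135 and 0 CPM in subclusters 0 to 2. The cyclic GMP and RGS genes had a median of 0.14 over 11 genes, with *Prkg1*, the cGMP-dependent kinase, at 1267 and 1320 CPM.

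*Trpc6* and *Actc1* are shown with the bases before their start because both windows held a CArG box, the element bound by serum response factor at contractile genes. The 150 bases directly before each start are printed from RefSeq on build GRCm38.p6, 5′ to 3′ on the gene's strand, with the CArG box in capitals. *Trpc6* lies on the plus strand at chr9:8543992-8544141 and *Actc1* on the minus strand at chr2:114052876-114053025. The box began 122 bases before the *Trpc6* start and 47 bases before the *Actc1* start.
Trpc6: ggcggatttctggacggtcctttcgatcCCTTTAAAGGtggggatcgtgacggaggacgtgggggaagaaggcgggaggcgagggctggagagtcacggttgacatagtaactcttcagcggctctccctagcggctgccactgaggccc
Actc1: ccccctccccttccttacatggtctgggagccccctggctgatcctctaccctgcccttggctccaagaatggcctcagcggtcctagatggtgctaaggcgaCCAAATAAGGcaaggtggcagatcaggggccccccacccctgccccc
The box, searched on both strands in 250 bases before each start, was found in 482 of 32851 RefSeq promoters (1.47%). Of the promoters in the channel list 1 of 9 held it (*Trpc6*), of the contractile list 1 of 16 (*Myl9*), and of the pericyte marker list 0 of 13. A match describes the letters in this window only.

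Contractile genes had 19 of 20 over the limit, of which *Actg2*, *Pln* and *Mustn1* were at least 2-fold higher and *Myocd* lower, with a median of -0.11. Over all genes 8.33% were higher and 4.95% lower, and 1 lower gene of 19 is near that share. The sign of this median depended on the cells taken, since it was 0.07 in subclusters 0 to 2 and -0.38 in subcluster 3. *Acta2* was at 11871 CPM in Control and 11840 CPM in AngII+HS gated cells, at 11959 and 15693 CPM in subclusters 0 to 2 and at 9167 and 6667 CPM in subcluster 3. *Myocd*, the coactivator of serum response factor in smooth muscle, was at 689 and 280 CPM in gated cells, at 331 and 142 CPM in subcluster 3 and at 655 and 419 CPM in VSMCs, and so was lower in AngII+HS in all 3. The integrin gene *Itga8* was at 1489 and 782 CPM in gated cells and at 596 and 289 CPM in subcluster 3. Of the *Pln* UMIs in AngII+HS gated cells, 61.3% came from 1 cell.

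Fibrillar collagen and matrix remodelling genes had 27 of 28 over the limit. Of these, 15 were higher and 0 lower, against 8.33% and 4.95% of all genes, and their median was 1.18. The median was 0.63 in subcluster 3, 0.94 in subclusters 0 to 2 and 0.99 in VSMCs, so it was above the median of all genes in each. Over the gate with T and B cell CPM subtracted it was 1.14, below the 2.72 of all genes. *Col1a1* was at 578 and 1561 CPM in gated cells and at 598 and 1205 CPM in subcluster 3. *Col3a1* was at 1033 and 2642 CPM in gated cells, at 935 and 2745 CPM in subcluster 3 and at 981 and 1955 CPM in VSMCs. *Tnc*, tenascin C, was at 296 and 767 CPM in gated cells and at 470 and 1218 CPM in subcluster 3. *Adamts4*, an aggrecanase, was at 15.5 and 266 CPM and at 211 and 543 CPM. *Timp1*, an inhibitor of metalloproteinases, was at 11.5 and 209 CPM in gated cells, at 70.4 and 246 CPM in subcluster 3 and at 9.56 and 181 CPM in subclusters 0 to 2. Of the 15 higher genes, 11 were at least 3-fold over the T and B cell level, and *Thbs1*, *Spp1*, *Mmp2* and *Mmp3* were not. *Spp1*, osteopontin, was at 0.848 and 431 CPM in gated cells, but T and B cells held 210 CPM in AngII+HS and 1 cell gave 38.5% of the gate's UMIs.

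Basement membrane genes, the sheet that pericytes share with endothelium, had a median of 0.58 over 16 genes. Of these, *Lamb1*, *Nid1* and *Sparc* (18.75%) were at least 2-fold higher, against 8.33% of all genes. *Col4a1* was at 613 and 860 CPM in gated cells and at 484 and 976 CPM in subcluster 3, and *Col4a2* at 387 and 654 CPM and at 273 and 649 CPM. Both type IV collagen chains were therefore at least 2-fold higher within subcluster 3 and less than 2-fold over the whole gate. *Lamb1*, a laminin chain, was at 0.783 and 23.9 CPM in gated cells and at 12.4 and 53.6 CPM in subcluster 3. Its Control levels rested on few UMIs. The elastic fibre list had a median of 0.44 over the gate and 0.61 in subclusters 0 to 2, but -0.19 in subcluster 3. In subcluster 3 0 of 10 genes were at least 2-fold higher, which is near the 5.67% of all genes there. Of its genes *Mgp*, an inhibitor of calcification, was at 5166 and 11601 CPM in gated cells and at 4890 and 12379 CPM in VSMCs.

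Among signals exchanged with the vessel, 25 of 26 genes were over the limit, 5 were higher and 1 lower, with a median of -0.15. The 1 lower gene of 25 is near the 4.95% of all genes that were lower, and 8.33% of all genes were higher. *Angpt2*, the antagonist of angiopoietin 1 at the endothelial TIE2 receptor, was at 29.0 and 84.6 CPM in gated cells but at 151 and 97.9 CPM in subcluster 3, where the direction was the opposite (log2 ratio -0.63, -1.10 to -0.15). *Angpt1* was at 68.3 and 37.3 CPM in subcluster 3. *Nrarp*, a target of NOTCH, was at 2.09 and 21.9 CPM in gated cells and at 18.6 and 49.0 CPM in subcluster 3, where its Control level rested on few UMIs. *Notch3*, a gene of the gate, was at 96.5 and 413 CPM in gated cells and at 418 and 734 CPM in subcluster 3, which is given as a description only. *Tgfb2* was lower, at 347 and 154 CPM in gated cells and 331 and 208 CPM in VSMCs. Mural transcription factors had 6 of 14 genes higher and a median of 0.63 (*Tbx2*, *Ebf2*, *Nr2f2*, *Prrx1*, *Twist1* and *Zeb2*, the last under 3-fold over T and B cells), against a median of 0.19 in subcluster 3 and 0.03 in subclusters 0 to 2. *Nr2f2*, a factor of venous identity, was at 241 and 501 CPM in gated cells and at 546 and 791 CPM in subcluster 3.

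Chemokine and inflammation genes had 27 of 29 over the limit, of which 20 were higher and 0 lower, against 8.33% and 4.95% of all genes. Their median was 2.24 over the whole gate. The median was 0.55 in subcluster 3 and 0.65 in subclusters 0 to 2, so the value over the whole gate was larger than in either group of cells. In the pericyte-like fine subcluster 5 it was 0.20 against 0.07 over all genes. In VSMCs it was 0.68, and in T and B cells it was 2.31 against -0.09 over all genes, as high as in the gate. *Cxcl1*, a neutrophil attractant, was at 220 and 1038 CPM in gated cells but at 1848 and 2204 CPM in subcluster 3 and at 167 and 169 CPM in subclusters 0 to 2. *Il6* was at 27.8 and 393 CPM in gated cells, at 344 and 706 CPM in subcluster 3 and at 17.6 and 160 CPM in subclusters 0 to 2. *Ccl19*, a lymphocyte attractant, was at 9.78 and 242 CPM in gated cells and at 180 and 488 CPM in subcluster 3. *Vcam1*, an adhesion molecule, was at 69.5 and 274 CPM, at 80.7 and 276 CPM, and at 69.1 and 272 CPM in the gate, subcluster 3 and subclusters 0 to 2. *Il6*, *Ccl19* and *Vcam1* were therefore higher in AngII+HS within subcluster 3, and *Cxcl1* was within 2-fold there. *Cxcl2* was at 91.0 and 1145 CPM in gated cells, while T and B cells held it at 35.0 and 1971 CPM. It is 1 of 9 of the 20 higher genes that were not 3-fold over T and B cells, with *Ccl2*, *Ccl7*, *Cxcl10*, *Icam1*, *Lcn2*, *C3*, *C4b* and *Ptgs2*.

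Interferon response and antigen presentation genes had 13 of 15 higher and *Irf1* lower, against 8.33% and 4.95% of all genes. Their median was 1.91 over the gate and 0.99 in subcluster 3. In subclusters 0 to 2 the median was 0.39, and in VSMCs it was 1.47. *Ifitm3*, an antiviral membrane protein, was at 120 and 739 CPM in gated cells and at 495 and 1389 CPM in subcluster 3, and T and B cells held it at 29.4 and 155 CPM. The other 12 higher genes were not 3-fold over T and B cells, which express many of them themselves.

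Immediate-early genes moved the other way. Of 17 genes, 9 were at least 2-fold lower (*Fos*, *Fosb*, *Jun*, *Atf3*, *Egr1*, *Zfp36*, *Klf6*, *Btg2* and *Nr4a1*) and 0 higher. The shares over all genes were 4.95% lower and 8.33% higher, and the median of the list was -1.004. The median was -0.70 in subcluster 3, -0.92 in subclusters 0 to 2, -0.88 in VSMCs and -0.96 in T and B cells, so it was below 0 in each class examined. The median share of mitochondrial UMIs was also lower, at 3.97% in Control and 1.87% in AngII+HS gated cells. Its part in the difference was not tested. *Fos* was at 7665 and 3106 CPM in gated cells and at 4321 and 2275 CPM in subcluster 3. *Atf3* was at 2157 and 703 CPM in gated cells and at 1430 and 571 CPM in subcluster 3, and *Egr1* at 5042 and 1522 CPM and at 2990 and 1225 CPM. The heat shock gene *Hspa1a* did not follow, at 694 and 666 CPM in gated cells and at 435 and 765 CPM in subcluster 3. In fine subcluster 5 the median of the list was -0.87, with 3 of 17 genes at least 2-fold higher and 5 lower. Of the 2791 genes compared in fine subcluster 5, 6.88% were at least 2-fold higher and 4.51% lower. There *Hspa1a* was at 309 and 803 CPM, *Hspa1b* at 147 and 461 CPM and *Dnajb1* at 171 and 528 CPM, each at least 2-fold higher. No list of heat shock or chaperone genes was set, so this holds for these named genes only.

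*Fos* and *Atf3*, 2 of the genes that were lower together, are shown because both windows held TGACGT or its reverse ACGTCA, the core of the cAMP response element, given in capitals. They lie at chr12:85473740-85473889 on the plus strand and at chr1:191183334-191183483 on the minus strand, and the element began 66 and 8 bases before the start.
Fos: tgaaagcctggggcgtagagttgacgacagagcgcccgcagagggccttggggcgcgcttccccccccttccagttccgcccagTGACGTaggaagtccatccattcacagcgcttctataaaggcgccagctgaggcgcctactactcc
Atf3: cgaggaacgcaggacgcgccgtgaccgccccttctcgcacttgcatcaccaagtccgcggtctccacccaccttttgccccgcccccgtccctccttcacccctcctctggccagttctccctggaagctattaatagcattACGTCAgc
Of the 15 immediate-early genes with a promoter in the table, 3 held the element in 250 bases (*Atf3*, *Btg2* and *Fos*), and 2125 of all 32851 promoters did (6.47%). *Zfp36* was the 1 gene of the list with a CArG box.

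**Figure D5:**
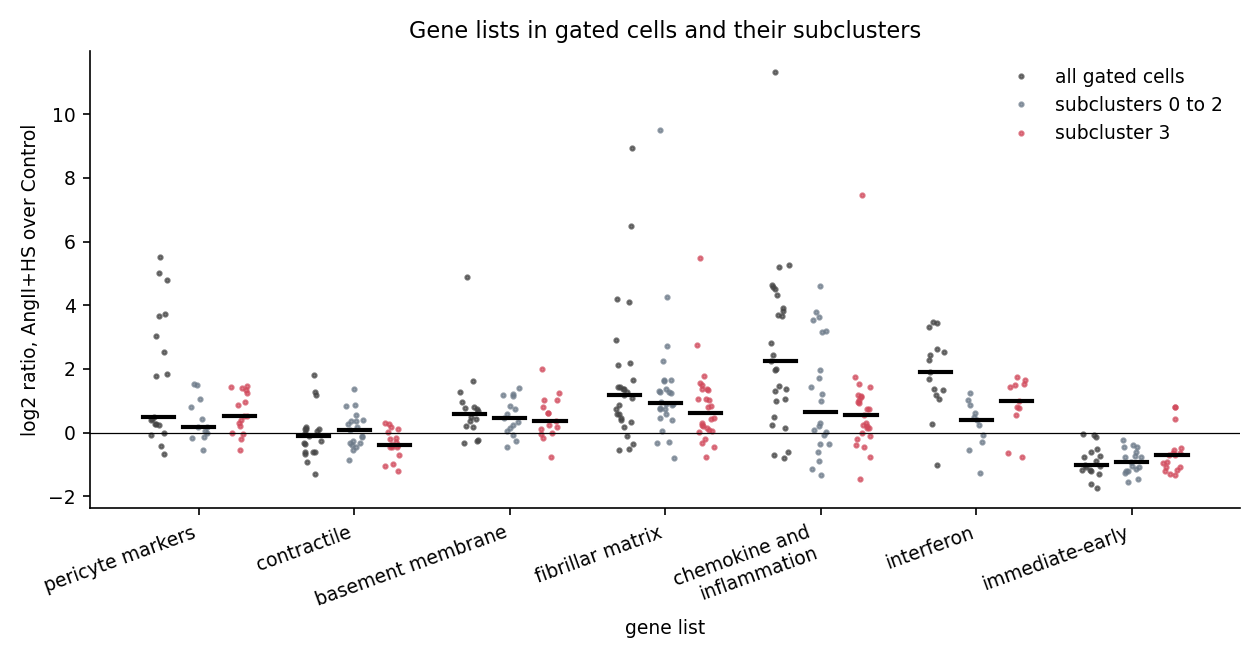
Log2 ratios of AngII+HS over Control for the genes of 7 lists, in all gated cells, in subclusters 0 to 2 and in subcluster 3; points are genes with at least 50 UMIs and bars are medians. The chemokine and inflammation bar is at 2.24 over all gated cells and at 0.65 and 0.55 in the subsets, while the immediate-early bars are below 0 in all 3.

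Markers of fibroblasts and of myeloid and endothelial cells were higher in the AngII+HS gated cells too, and those of Schwann cells were not. The share of all genes at least 2-fold higher over the gate was 8.33%. Fibroblast markers other than the gate's own were at least 2-fold higher in 13 of 14 genes, with a median of 2.35 and a summed level of 737 CPM in Control and 2358 CPM in AngII+HS, led by *Gsn*. In subcluster 3 the sums of fibroblast markers were 5921 and 3252 CPM, those of macrophage markers 898 and 776 CPM, those of neutrophil markers 211 and 1590 CPM and those of endothelial markers 1120 and 1740 CPM, so neutrophil and endothelial sums were higher in AngII+HS there too. In subclusters 0 to 2 fibroblast markers summed to 568 and 1693 CPM and macrophage markers to 16.2 and 138 CPM. Neutrophil markers summed to 8.42 and 341 CPM and endothelial markers to 449 and 599 CPM in those subclusters. Macrophage markers were higher in 8 of 9 genes, with sums of 44.0 and 410 CPM over 10 markers led by *Lyz2* (10.8 and 106 CPM), and T and B cells held sums of 68.6 and 666 CPM. Neutrophil markers were higher in 6 of 6 genes, with sums of 14.8 and 874 CPM over 8 markers, and T and B cells held sums of 21.0 and 1961 CPM. None of these 14 myeloid genes was 3-fold over T and B cells, and no macrophage, neutrophil or fibroblast marker was at 0 in the gated cells of either library. Endothelial markers summed to 470 and 1086 CPM, of which *Fabp4* gave 379 and 892 CPM. Schwann cell markers had 1 gene higher and 1 lower of 4, with a median of -0.58 and sums of 660 and 365 CPM, nearly all of it *Ncam1*. Their part in the results above was not tested.

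A further set of genes was chosen for being higher in gated cells than in VSMCs in both libraries, and consisted of *H2-M9*, *Ccl11*, *Gpx3*, *Csmd1*, *Fst*, *Colec11*, *Lin7a*, *Ccl19*, *Procr*, *Serpinf1*, *Cp* and *Tnfaip6*. *Csmd1* was at 30.9 CPM in Control and 630 CPM in AngII+HS gated cells against 6.34 and 53.3 CPM in VSMCs, and at 871 and 1333 CPM in subcluster 3. *Fst*, follistatin, was at 21.3 and 292 CPM in gated cells but turned direction within subcluster 3, at 617 and 283 CPM. *Tnfaip6*, a hyaluronan-binding protein, turned as well, at 43.8 and 136 CPM in gated cells and 565 and 269 CPM in subcluster 3. Fibroblasts held several of these genes at higher levels than the gated cells, including *Serpinf1* at 992 and 814 CPM and *Tnfaip6* at 1126 and 578 CPM.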

How the data were processed

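The values are raw UMI counts per gene and cell barcode, which the authors made with Cell Ranger and deposited as unnormalized matrices. The matrix header names Cell Ranger 8.0.1, another version than the methods, and the submitters' processing notes name mm10 where the methods name another build, so no coordinate was taken from the counts. Each list of barcodes was as long as the opposite library's matrix (24804 and 11448 entries), so neither entered any step. If the matrices were also exchanged, each direction given here would be the opposite. VSMCs made up 37.6% of the cells of the library read as Control and 3.68% of the other, and neutrophil markers in their T and B cells summed to 21.0 and 1961 CPM.

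Barcodes below 500 UMIs or 200 genes, or with 20% or more of mitochondrial UMIs, were dropped, which left 11288 Control and 24560 AngII+HS cells (medians of 7576 and 3550 UMIs, 33696 genes). The members and gene lists were chosen with earlier results of these data known. VSMCs, fibroblasts, VECs and T and B cells were classes set by marker counts. UMIs were summed per class and library and given as CPM. Genes with at least 50 UMIs over both sides of a comparison were compared, with 0.5 UMIs added for medians and with exact 95% intervals for single ratios. No test, p-value or SE was computed. Named genes were the 12 highest and 12 lowest AngII+HS over Control ratios in gated cells, among genes outside the gate with at least 100 UMIs, a UMI in at least 10% of the cells of a library and a level at least 3-fold that of T and B cells where they were higher, the 12 genes most above VSMCs in both libraries, and genes of the lists. *Actc1* and other leading genes of subclusters were named after their values were seen.

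Gated cells were integrated and clustered in R 4.3.3 with Seurat 5.3.0, on 2000 variable genes without those of the gate, 20 components and resolution 0.4 (0.2 and 0.8 as alternatives). Scrublet, run through scanpy 1.11.5, gave doublet scores, and no cell was removed by them. Marked cells have the highest scores, at a rate of 0.8% per 1000 cells, or 9.03% of Control cells and 19.6% in AngII+HS. Among gated cells 178 of 1227 (14.5%) were marked in Control and 58 of 232 (25.0%) in AngII+HS. In subcluster 3 these were 15 of 54 and 43 of 123 cells. For TMM scaling edgeR 4.0.16 was used, and other steps ran in Python 3.11.15, numpy 2.4.6, scipy 1.17.1, pandas 2.3.3 and matplotlib 3.10.9. Poisson counts were simulated for 11322 genes, with 200 changed 2-fold between AngII+HS and Control gated cells. The direction was right for all changed genes, and the intervals held the true ratio for 95.5% of them. The simulation had no spread between cells or mice, so it checks the calculation only and not how the intervals hold for these data. The views of subcluster 3 alone, of the gate without it, and of T and B cells with at most 1 *Myh11* UMI were added after the data had been seen. Promoters came from a RefSeq table on GRCm38.p6.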

Additional observations from a re-analysis of the deposited data

How the results depend on the processing

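The log2 ratio of the share of gated cells, AngII+HS over Control, was -3.52. It was -3.80 without *Steap4* in the gate, -3.28 with at least 5 channel UMIs, -0.35 with contractile-rich cells left out (61 and 104 cells, interval spanning 0) and -4.55 without subcluster 3. It was 0.066 for subcluster 3 alone, with an interval that spanned 0 (-0.41 to 0.56), and turned to 0.68 after thinning to 2000 UMIs (0.022 to 1.37). The number of genes at least 2-fold higher was 943. It was 447 with contractile-rich cells left out, which is 10.7% of the 4187 genes then compared, 262 in subcluster 3 alone, 523 without it, 65 after thinning (679 genes compared), 1500 with at least 20 UMIs, 374 with at least 200 UMIs, and 6483 and 6185 with the CPM of all T and B cells, or of those with at most 1 *Myh11* UMI, subtracted. The number of lower genes was 560. It was 404 with contractile-rich cells left out (9.65% of those compared), 205 in subcluster 3 alone, 50 after thinning, 843 and 310 with the 20 and 200 UMI limits, and 1606 and 1873 with the subtractions. Subtraction moved the median of all genes from 0.06 to 2.72 and 2.24 on the log2 scale, and values under it are read relative to that shift.

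The pericyte marker median of 0.50 was 0.18 without subcluster 3 and 0.27 with at least 200 UMIs, and 1.30 without Scrublet-marked cells, 1.13 with at least 20 UMIs, 0.92 with contractile-rich cells left out, 0.85 with equal weight per cell and 0.78 with at least 5 channel UMIs. With the subtractions it was 2.41 and 1.90, below the shifted medians of all genes, whereas as reported it lay above the median of all genes. The contractile median was -0.64 with contractile-rich cells left out and -0.68 after thinning, and it changed sign to 0.11 without Scrublet-marked cells and 0.07 without subcluster 3. The fibrillar median was 0.21 after thinning. With the subtractions it was 1.14 and 0.93, below the shifted medians of all genes, whereas as reported it lay above the median of all genes. The chemokine median was 1.01 with contractile-rich cells left out, 0.55 in subcluster 3, 0.65 without it and 0.57 after thinning. With the subtractions it was 2.39, below the shifted median of all genes of 2.72, and 2.53, above that of 2.24. The immediate-early median was -1.38 with the *Myh11*-limited subtraction and lay between -1.12 and -0.70 under the other 14 settings. Resolution 0.8 gave 8 subclusters in place of 4. TMM scaling, leaving mitochondrial genes out of the total, the stricter cell filter and equal weight per cell kept each count within 1.5 times. With the *Myh11* limit on T and B cells the 12 highest and 12 lowest genes were the same. No paired analysis was possible because each condition has 1 library.

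The limits are those of 1 library per condition. Intervals cover counting error only, and mouse, library and condition cannot be told apart. The Control side of subcluster 3 rests on 54 cells and 483235 UMIs.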

Other observations

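Genes of hypoxia and glycolysis had a median log2 ratio of -0.21 over 15 genes in the gated cells, but 0.47 over 10 genes in subcluster 3, where the direction was the opposite. *Hk2*, a hexokinase, was at 399 CPM in Control and 166 CPM in AngII+HS gated cells, at 348 and 169 CPM in subcluster 3 and at 362 and 167 CPM in VSMCs. Renin, the enzyme that starts the angiotensin cascade and that some perivascular mural cells can make, was found in few gated cells. *Ren1* had 3 UMIs in 2 Control cells and 44 UMIs in 4 AngII+HS cells, of which 63.6% came from 1 cell. Of 12 cell cycle genes 5 were over the limit of 50 UMIs. *Top2a*, *Mcm2* and *Tyms* were at least 2-fold higher in AngII+HS gated cells, against 8.33% of all genes. None of them was 3-fold over T and B cells. A *Mki67* UMI was found in 18 of 1227 Control (1.47%) and 7 of 232 AngII+HS gated cells (3.02%), below the shares in T and B cells (5.98% and 6.36%).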
